A study of Mus musculus with 8 samples.

Results

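The genes described here are 10 genes of the haemangioblast and the early endothelium: Kdr, Flt1, Etv2, Tal1, Lmo2, Fli1, Pecam1, Cdh5, Rasip1 and Egfl7. They were chosen by name, as every probe set of the array whose annotation is exactly one of these symbols. This gave 16 probe sets for the 10 genes, out of 17097 genes that the annotation names by 1 symbol. Expression was measured on 8 microarrays of cells sorted out of mouse embryos at gastrulation. The embryos carried Mesp1-rtTA, a tetracycline transactivator driven by Mesp1, and TetO-H2B-GFP, a nuclear green fluorescent reporter under its control. All 4 groups carried both transgenes: GFP- and GFP+ cells at embryonic day (E) 6.5, and GFP- and GFP+ cells at E7.5. Each array held amplified RNA of 50 sorted living cells, and each group had 2 arrays, labelled biological replicates 1 and 2. GFP reports activity of the Mesp1-driven transactivator, so a GFP- cell need not lack Mesp1. The strain, the induction of the transactivator and the number of embryos behind an array are not given in the sources used here. P-values measure only the spread between these samples, which may be technical.

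The haemangioblast is the mesodermal progenitor of blood and of the first vessels, and it forms from Mesp1-expressing mesoderm as this leaves the primitive streak for the yolk sac and the embryo. VEGF signals reach these cells through the receptor encoded by Kdr (VEGFR2), while Flt1 (VEGFR1) binds the ligand tightly and restrains it. The ETS factor Etv2 commits mesoderm to blood and endothelium, Tal1 and Lmo2 act together in a complex that opens the blood programme, and Fli1, another ETS factor, maintains vascular genes. Pecam1, Cdh5, Rasip1 and Egfl7 belong to the endothelial cell itself: adhesion at its junctions, formation of the vessel lumen and secreted guidance of vessel growth.

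Sequences around annotated transcription starts are shown for Kdr and Etv2, whose levels moved alike, and for Flt1, the second VEGF receptor. Rasip1 is also shown, as it was highest in the GFP- E6.5 arrays, where Kdr was lowest. The windows, 1 for each of these genes, run from 250 bases before to 50 bases after a start. They come from a set of RefSeq promoters on GRCm38.p6 that held 6 of the 10 genes. Capitals mark the 2 ETS-type letter strings searched, CCGGAA and AGGAAG, on either strand. The Kdr window lies at chr5:75978406-75978705 and the Flt1 window at chr5:147725962-147726261, both on the minus strand of chromosome 5. The Etv2 window lies at chr7:30635803-30636102 on the minus strand of chromosome 7, and the Rasip1 window at chr7:45627287-45627586 on its plus strand.
Kdr: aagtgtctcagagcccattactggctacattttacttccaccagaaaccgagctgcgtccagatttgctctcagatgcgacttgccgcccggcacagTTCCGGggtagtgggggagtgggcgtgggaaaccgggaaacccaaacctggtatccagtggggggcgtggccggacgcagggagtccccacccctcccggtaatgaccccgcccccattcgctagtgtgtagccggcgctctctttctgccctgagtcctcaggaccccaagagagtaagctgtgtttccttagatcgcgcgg
Flt1: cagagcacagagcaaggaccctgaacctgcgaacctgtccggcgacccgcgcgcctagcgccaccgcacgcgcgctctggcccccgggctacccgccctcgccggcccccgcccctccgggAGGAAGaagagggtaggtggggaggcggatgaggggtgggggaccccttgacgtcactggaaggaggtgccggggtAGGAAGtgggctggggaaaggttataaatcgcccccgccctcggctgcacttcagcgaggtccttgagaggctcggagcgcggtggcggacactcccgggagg
Etv2: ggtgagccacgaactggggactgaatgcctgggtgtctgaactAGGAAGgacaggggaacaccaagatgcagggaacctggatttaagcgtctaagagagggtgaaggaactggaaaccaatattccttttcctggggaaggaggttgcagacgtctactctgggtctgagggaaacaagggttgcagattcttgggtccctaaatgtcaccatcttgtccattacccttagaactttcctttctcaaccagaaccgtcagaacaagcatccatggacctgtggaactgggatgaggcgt
Rasip1: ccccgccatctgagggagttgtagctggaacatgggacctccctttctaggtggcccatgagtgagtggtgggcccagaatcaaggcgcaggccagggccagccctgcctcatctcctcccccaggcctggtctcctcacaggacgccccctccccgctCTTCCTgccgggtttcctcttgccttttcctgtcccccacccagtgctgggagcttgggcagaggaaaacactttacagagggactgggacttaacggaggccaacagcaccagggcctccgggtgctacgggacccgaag
CCGGAA was found in 1 of the 9 windows of these 6 genes, that of Kdr, against 14.9% of all 32851 windows of 300 bases. AGGAAG was found in 5 of the 9, belonging to Flt1, Etv2, Rasip1 and Egfl7, against 35.4% of all. The GATA-type string AGATAA was in 1 of 9 (Tal1, 11.2% of all), the forkhead string TAAACA in 0 of 9 (13.4%), the E-box CAGCTG in 1 of 9 (Egfl7, 16.3%) and any CANNTG in 5 of 9 (72.3%). CAGCTG matches are also CANNTG matches. These are counts of letters, not of bound sites.

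Values are log2 RMA levels of a probe set, and they are compared between arrays, not between genes. Array medians lay at 4.20 to 4.23 for replicate 1 and at 4.54 to 4.59 for replicate 2, so changes are also given within each replicate number. A gene was kept for testing when at least 2 arrays lay above the median of all values, 4.38, and was read from its probe set with the highest mean. This kept 11706 genes and 9 of the 10 members; levels under 4.38 have uncertain size. Mesp1 itself was at 5.64 and 6.26 in GFP- and 9.75 and 10.03 in GFP+ cells at E6.5, and at 7.76 and 8.06 against 8.75 and 8.65 at E7.5 (replicates 1 and 2). With 50 cells of mixed type on an array, fewer cells of a type and less RNA per cell cannot be told apart.

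**Figure D1:**
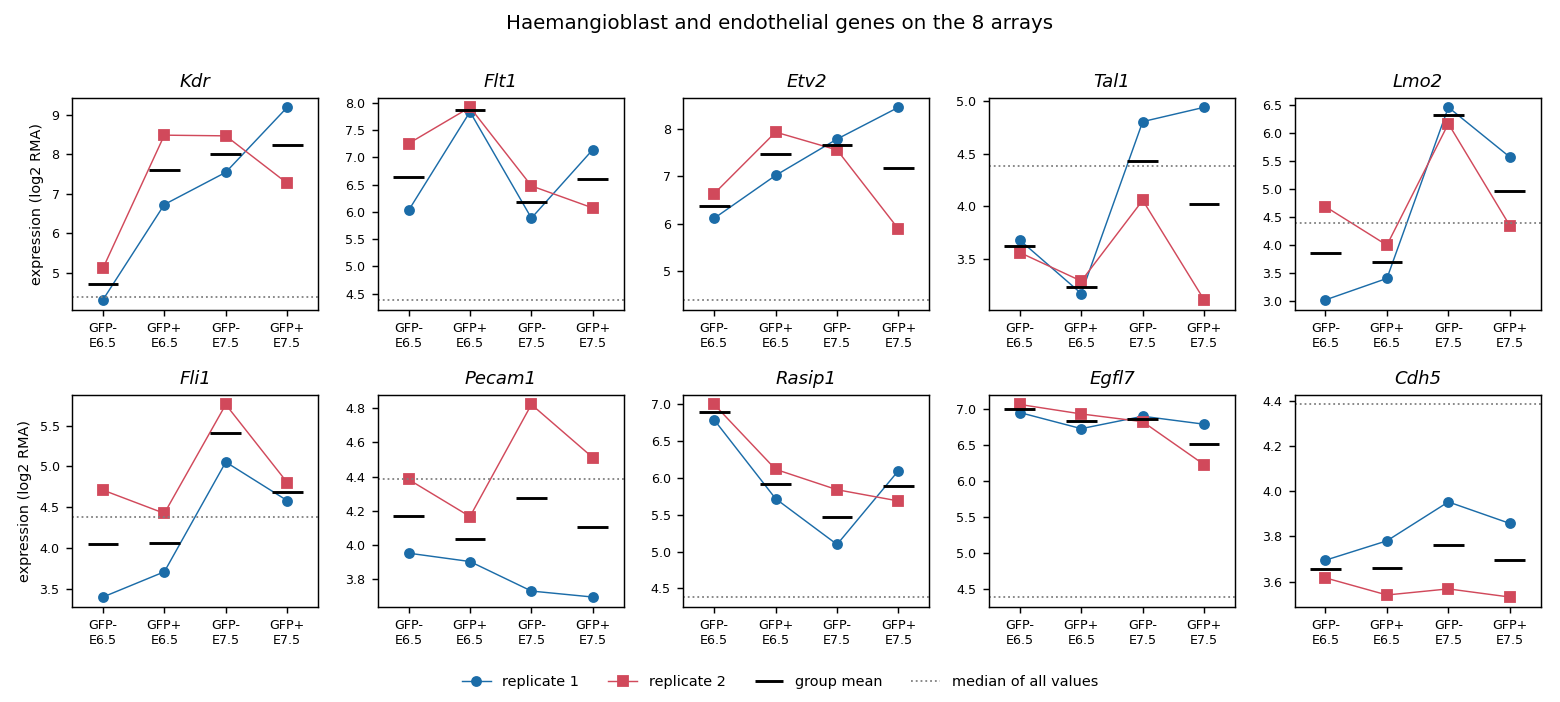
Log2 RMA level (y axis, own scale in each panel) of the 10 genes in the 4 groups (x axis); circles are replicate 1, squares replicate 2, thin lines join arrays of 1 replicate number, black bars are group means and the dotted line is the median of all values, 4.38. Kdr is lowest in both GFP- E6.5 arrays (4.31 and 5.11), and Cdh5 stays under the dotted line on all 8 arrays.

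Kdr had the widest range of the members. It was low in GFP- cells at E6.5 and higher in each of the other groups. Its levels in replicates 1 and 2 were 4.31 and 5.11 in GFP- and 6.73 and 8.49 in GFP+ cells at E6.5, then 7.55 and 8.47 in GFP- and 9.19 and 7.27 in GFP+ cells at E7.5. Both GFP- E6.5 arrays lay under all 6 others, and the arrays of the remaining 3 groups overlapped. The group means in rising order were 4.71 ± 0.56 (SD, n = 2) in GFP- E6.5, 7.61 ± 1.24 in GFP+ E6.5, 8.01 ± 0.65 in GFP- E7.5 and 8.23 ± 1.36 in GFP+ E7.5. Only the lowest group stood clear of the next one, and the other neighbours in that order overlapped. At E6.5 the GFP+ minus GFP- change was 2.90 (SE 0.80, 7.45-fold; 2.42 and 3.38 within replicates 1 and 2), which did not pass (limma adjusted p = 0.413). In GFP- cells the change from E6.5 to E7.5 was 3.30 (SE 0.80, 9.83-fold; 3.23 and 3.36 within the replicates; limma adjusted p = 0.323). The E6.5 change was 2.02 without GFP+ E6.5 replicate 2 and 3.78 without replicate 1, and the stage change ran from 2.83 to 3.76 with 1 array left out. Both changes rest on the same pair of GFP- E6.5 arrays, 1 of which lay under 4.38, so their sizes are uncertain.

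At E7.5 the fractions did not separate for Kdr. The GFP+ minus GFP- difference was 1.65 within replicate 1 and -1.20 within replicate 2, with a mean of 0.22 and a 95% interval from -1.66 to 2.11. In GFP+ cells the change between the stages was 2.46 within replicate 1 and -1.22 within replicate 2 (mean 0.62). The fraction gap at E7.5 minus that at E6.5 was -2.67 (SE 1.13, -0.77 and -4.58 within the replicates; limma adjusted p = 1.00).

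Flt1 followed another order, with its highest levels in GFP+ cells at E6.5. Replicates 1 and 2 were at 6.02 and 7.25 in GFP- and 7.83 and 7.92 in GFP+ cells at E6.5, and at 5.88 and 6.47 in GFP- and 7.14 and 6.07 in GFP+ cells at E7.5. Both GFP+ E6.5 arrays were above all others. The GFP+ minus GFP- change at E6.5 was 1.24 (SE 0.53; 1.81 and 0.67 within the replicates; limma adjusted p = 0.869), and the change from E6.5 to E7.5 in GFP+ cells was -1.27 (SE 0.53; -0.69 and -1.85; limma adjusted p = 1.00). Without GFP- E6.5 replicate 1 the former was 0.62, and without replicate 2 it was 1.85. In GFP- cells the change between the stages was -0.46 (95% interval -1.70 to 0.78) for Flt1 and 3.30 for Kdr. The difference between these receptors was not tested.

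The annotation gives Flt1 3 probe sets, and they disagreed. The second had a GFP+ minus GFP- change at E6.5 of 0.60 (-0.01 and 1.21 within the replicates), and the third, the lowest of them, of -0.21 (-0.07 and -0.36). On the second, 5.82 to 6.21 covered 7 arrays and GFP+ E6.5 replicate 2 stood above them at 7.03. On the third, 4.03 to 4.98 covered 7 arrays and GFP- E7.5 replicate 2 was at 5.83. The order seen on the first probe set is thus not shared by the other two, and the transcripts each one reads were not analysed here.

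**Figure D2:**
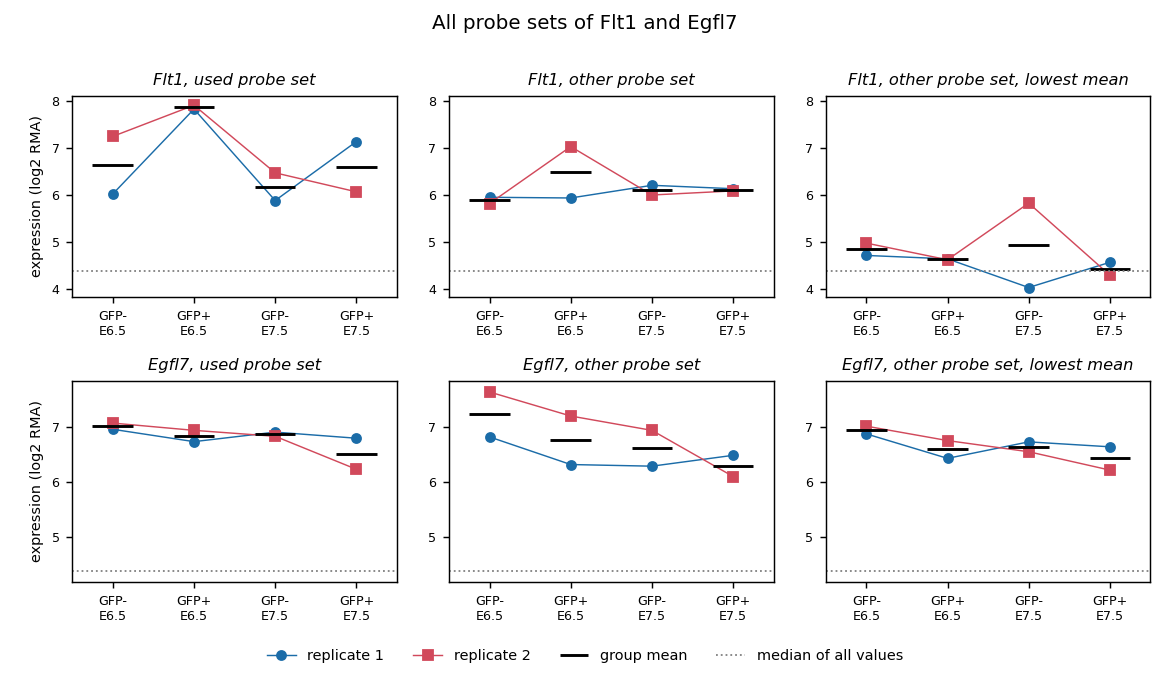
Log2 RMA level (y axis, shared within a row) on the 3 probe sets of Flt1 (top) and of Egfl7 (bottom) in the 4 groups; symbols as in the plot of the 10 genes. The Flt1 probe sets give E6.5 fraction changes of 1.24, 0.60 and -0.21, whereas those of Egfl7 lie between -0.18 and -0.47.

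Among the transcription factors, Etv2 was above the median of all values on all 8 arrays. Replicates 1 and 2 were at 6.11 and 6.63 in GFP- and 7.02 and 7.94 in GFP+ cells at E6.5, and at 7.79 and 7.56 in GFP- and 8.46 and 5.88 in GFP+ cells at E7.5. The GFP- E6.5 arrays were under the GFP+ E6.5 and the GFP- E7.5 arrays, while the GFP+ E7.5 arrays held both its highest and its lowest value. Its E6.5 fraction change was 1.11 (SE 0.78; 0.91 and 1.30 within the replicates), and its stage change in GFP- cells 1.30 (SE 0.78; 1.68 and 0.93). Neither passed (limma adjusted p = 1.00 for both). At E7.5 the fractions differed by 0.67 within replicate 1 and by -1.68 within replicate 2.

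Lmo2, which encodes an adaptor between DNA-binding factors of the blood programme, was highest in GFP- cells at E7.5. Its levels were 3.01 and 4.68 in GFP- and 3.40 and 3.99 in GFP+ cells at E6.5, then 6.46 and 6.17 in GFP- and 5.57 and 4.34 in GFP+ cells at E7.5. Both GFP- E7.5 arrays stood above all 6 others, and the E6.5 fractions overlapped. The stage change in GFP- cells was 2.47 (SE 0.63, 5.53-fold; 3.45 and 1.49 within the replicates; limma adjusted p = 0.361), and in GFP+ cells 1.26 (2.17 and 0.35). Averaged over both fractions it was 1.86 (SE 0.45; 2.81 and 0.92), at a limma adjusted p of 0.234. The GFP+ minus GFP- difference at E7.5 was -1.36 (SE 0.63; -0.89 and -1.82; limma adjusted p = 1.00). The stage change in GFP- cells was 1.63 without GFP- E6.5 replicate 1 and 3.30 without replicate 2. At E6.5, 3 of the 4 arrays lay under 4.38, so the sizes of the stage changes are uncertain.

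Fli1 had the same order as Lmo2 at E7.5 on the probe set used. It was at 3.40 and 4.71 in GFP- and 3.71 and 4.43 in GFP+ cells at E6.5, and at 5.05 and 5.76 in GFP- and 4.58 and 4.80 in GFP+ cells at E7.5. The GFP- E7.5 arrays were above all others, and replicate 2 lay above replicate 1 in each group. From E6.5 to E7.5 the change in GFP- cells was 1.35 (SE 0.51; 1.65 and 1.05 within the replicates; limma adjusted p = 0.678), and in GFP+ cells 0.62 (0.87 and 0.38). Without GFP- E6.5 replicate 1 the change in GFP- cells was 0.70, and without replicate 2 it was 2.004. At E7.5 the fractions differed by -0.71 (-0.47 and -0.95). The other Fli1 probe set lay between 2.27 and 3.01, under 4.38 on all 8 arrays, and had a stage change of -0.07 in GFP- cells.

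Tal1, the basic helix-loop-helix partner of Lmo2, passed the filter through 2 arrays, both of E7.5 replicate 1. Levels were 3.68 and 3.56 in GFP- and 3.17 and 3.29 in GFP+ cells at E6.5, then 4.81 and 4.06 in GFP- and 4.94 and 3.11 in GFP+ cells at E7.5. The GFP- E7.5 arrays lay above all E6.5 arrays, whereas the lowest value of all was that of GFP+ E7.5 replicate 2. Its stage change was 0.81 in GFP- cells (1.13 and 0.50 within the replicates) and 0.80 in GFP+ cells (1.77 and -0.18), each with an SE of 0.58 and a limma adjusted p of 1.00.

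Among the genes of the formed endothelium, Cdh5 and Pecam1 lay near or under the median of all values. Cdh5, which encodes VE-cadherin of endothelial junctions, was not above 4.38 on any array: its first probe set lay between 3.53 and 3.95 and its second between 2.66 and 2.87. It was the 1 member not kept. Of the 6 defining endothelial markers Cdh5, Pecam1, Tie1, Tek, Esam and Emcn, 3 stayed under 4.38 on all 8 arrays, 1 exceeded it on 1 array and 2 were kept. Of 25 other endothelial genes, a list that holds 4 of these 6, 15 were kept, and 8 (Eng, Icam2, Ets1, Ets2, Elk3, Cldn5, Ramp2 and Nos3) were above 4.38 on all 8 arrays. Pecam1, a junctional adhesion molecule also found on blood cells, was at 3.70 to 3.95 on the 4 replicate 1 arrays and at 4.17 to 4.82 on the 4 replicate 2 arrays. Its groups overlapped, and the spread followed the replicate number. The largest Pecam1 change among the 4 comparisons of single stages or fractions was -0.17, with a 95% interval from -1.26 to 0.91.

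Rasip1, which encodes a Ras-interacting protein of vessel lumen formation, was highest in GFP- cells at E6.5. It was at 6.79 and 7.0 in GFP- and 5.72 and 6.12 in GFP+ cells at E6.5, and at 5.10 and 5.84 in GFP- and 6.10 and 5.69 in GFP+ cells at E7.5. Both GFP- E6.5 arrays were above all 6 others, the reverse of Kdr, and the other 3 groups overlapped. The GFP+ minus GFP- change at E6.5 was -0.98 (SE 0.36; -1.07 and -0.88 within the replicates; limma adjusted p = 0.735), and the stage change in GFP- cells was -1.43 (SE 0.36; -1.69 and -1.16; limma adjusted p = 0.361). As summed levels, epiblast and visceral endoderm genes were also highest in these GFP- E6.5 arrays. The summed log2 level of 10 epiblast genes was 98.3 and 98.05 there, against 82.6 and 85.4 in GFP+ cells, and that of 12 visceral endoderm genes was 73.8 and 95.9, against 50.8 and 56.4. At E7.5 the epiblast sums were 81.8 and 84.5 in GFP- and 72.9 and 66.9 in GFP+ cells. Those of visceral endoderm were 56.1 and 73.5 in GFP- and 59.7 and 57.2 in GFP+ cells. At E6.5 the GFP- arrays were the higher ones, with no overlap of the fractions, for 13.7% of all genes. This held for 8 of the 10 epiblast and 11 of the 12 visceral endoderm genes. Their part in the Rasip1 and Kdr values was not tested.

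Egfl7, a secreted factor of endothelial cells, varied least among the kept members that were above 4.38 on all arrays. It lay between 6.73 and 7.06 on 7 arrays and at 6.23 on the eighth, GFP+ E7.5 replicate 2. The E6.5 fraction change was -0.18 on the probe set used and -0.47 and -0.35 on the others, and that at E7.5 was -0.35, -0.32 and -0.21. On the probe set used, neither passed (limma adjusted p = 1.00 for both).

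Counted together, 0 of the 9 kept members passed in any of the 7 contrasts, that is, the fraction effect at each stage, the stage effect in each fraction, both averaged, and their interaction. Few genes passed at all. For GFP+ minus GFP- at E6.5, 0.0683% of the 11706 genes passed upward and 0.00854% downward, and at E7.5 it was 0 genes either way, with 282 at an unadjusted p under 0.05. For E7.5 minus E6.5 in GFP+ cells 0.0256% passed upward and 0 genes downward, and in GFP- cells 0.0769% upward and 0.0171% downward. With stages averaged, the fraction effect gave 0.00854% upward, and with fractions averaged the stage effect gave 0.222% upward and 0.0342% downward. For the interaction limma called 0 genes, with 317 at an unadjusted p under 0.05. A count of 0 among 9 genes is near these background shares. With the replicate number as a block the members' count was also 0 in each contrast, at a lowest limma adjusted p of 0.121 for the stage change of Fli1 averaged over the fractions. The block raised the shares of all genes past the threshold to 0.154% upward and 0.103% downward for the fractions at E6.5, and to 0.248% and 0.0854% for the stages in GFP- cells. Upward and downward they were 0.0598% and 0.00854% for the averaged fraction effect and 0.607% and 0.196% for the averaged stage effect. The stage effect in GFP+ cells kept its shares, and limma with the block called 0 genes at E7.5 and for the interaction, with 755 and 761 at an unadjusted p under 0.05.

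At an unadjusted p under 0.05, most members counted came from the comparisons that use GFP- cells at E6.5. In GFP- cells between the stages, Kdr, Lmo2 and Fli1 were among the 3.45% of all genes past it upward, and Rasip1 among the 3.03% downward, 4 of 9 in all. Between the fractions at E6.5 it was Kdr and Flt1 upward (2.63% of all genes) and Rasip1 downward (3.1%). In GFP+ cells between the stages it was Flt1 downward (1.5%), with 2.35% of genes past it upward. Between the fractions at E7.5 it was none of the members, where 0.999% of genes lay past it upward and 1.41% downward. The averaged fraction effect had Kdr upward (2.37% of all genes) and none downward (3.09%). The averaged stage effect had Kdr, Lmo2 and Fli1 upward (3.84%) and Rasip1 downward (3.36%), and the interaction Rasip1 upward (1.33%) and Kdr downward (1.38%). With the replicate block, Fli1 was past it downward between the fractions at E7.5 (3.26% of all genes). Flt1 was then no longer past it upward at E6.5 (5.28%) or downward between the stages in GFP+ cells (4.19%), nor Kdr downward in the interaction (3.35%). The stage comparison in GFP- cells and the fraction comparison at E6.5 share the GFP- E6.5 arrays, so these counts are not independent.

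Ranges without overlap gave a similar picture. In GFP- cells, both E7.5 arrays lay above both E6.5 arrays for 5 of 9 members (Kdr, Etv2, Tal1, Lmo2 and Fli1), against 13.1% of all genes, and below them for 2 (Rasip1 and Egfl7), against 13.6%. Tal1 was kept for testing through E7.5 arrays alone, so the filter bears on its place in this count. In GFP+ cells this held for 2 upward (Lmo2 and Fli1, 11.8% of all genes) and 1 downward (Flt1, 15.2%). Between the fractions at E6.5, 3 members were higher in both GFP+ arrays (Kdr, Flt1 and Etv2, 14.8%) and 3 lower (Tal1, Rasip1 and Egfl7, 13.7%). Tal1 lay under 4.38 on all E6.5 arrays, so its place among the lower ones is uncertain. At E7.5 there were 0 higher (10.3%) and 3 lower (Lmo2, Fli1 and Egfl7, 10.8%). With all 4 arrays of a side set against the other 4, 0 members separated, against 1.23% and 1.61% of genes for the fractions and 2.4% and 2.01% for the stages. The median change of the 9 members was 0.81 between the stages in GFP- cells and 0.07 in GFP+ cells, against -0.01 and -0.03 for all genes. The 0.81 was the change of Tal1 itself, so the filter bears on this median too. Between the fractions it was -0.13 at E6.5 and -0.35 at E7.5, against 0.01 and -0.01. Of 10 extraembryonic mesoderm genes, markers of the yolk sac and allantois lineage, 7 were kept, and these were also higher at E7.5. Postn, Tbx4 and Tdo2 were not kept. The summed log2 level of the 7 kept genes in GFP- cells was 42.1 and 45.2 at E6.5 and 57.2 and 61.6 at E7.5. In GFP+ cells, where the members' median change was 0.07, it was 38.8 and 43.7 at E6.5 and 58.3 and 52.0 at E7.5. In GFP- cells the E7.5 arrays lay above the E6.5 arrays without overlap for 6 of the 7 (13.1% of all genes). In GFP+ cells this held for 5 of the 7 (11.8%). Of 8 extraembryonic ectoderm genes 7 were kept. Their summed level was 38.04 and 44.3 in GFP- cells at E6.5, and 51.8 and 37.98 at E7.5. Their part in the members' stage changes was not tested.

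**Figure D3:**
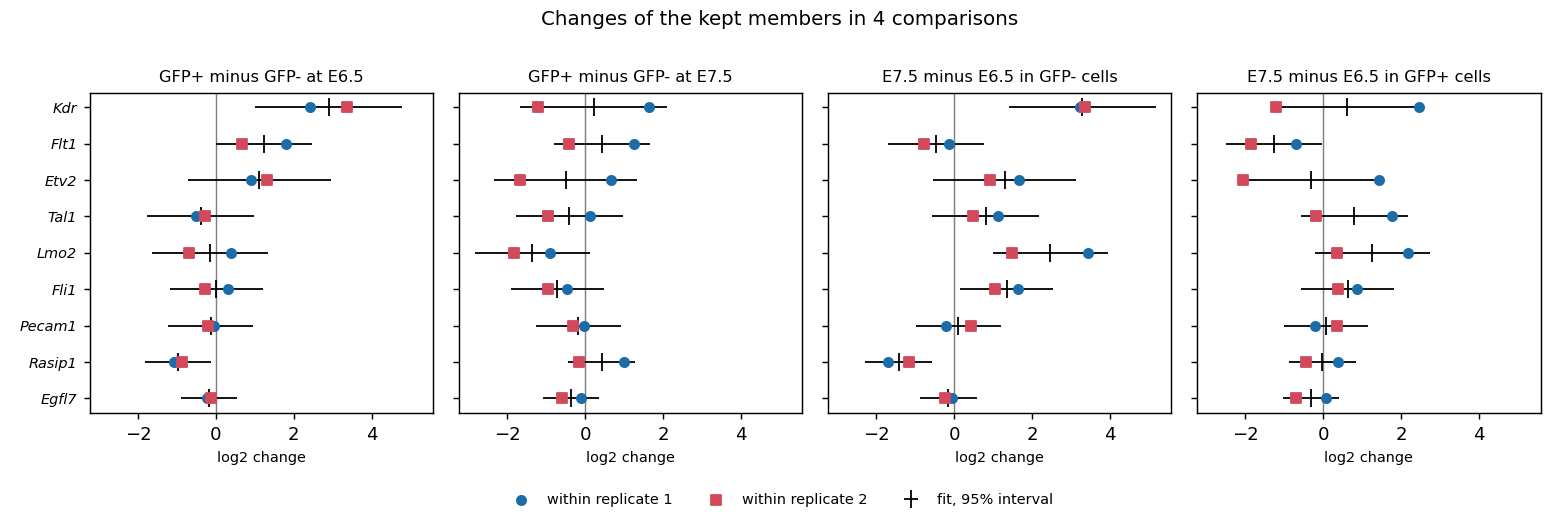
Log2 change (x axis) of the 9 kept members (rows) in 4 comparisons (panels); the black tick and line are the fitted change and its 95% interval, circles and squares the changes within replicates 1 and 2. In GFP- cells between the stages both symbols lie to the right of 0 for 5 members, while in the 2 panels that use GFP+ E7.5 cells the symbols of Kdr and Etv2 lie on opposite sides of 0.

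The comparisons that use GFP+ cells at E7.5 depended on which array was read. Replicate 2 lay below replicate 1 for 7 of the 9 members in that group, by -2.58 for Etv2, -1.93 for Kdr, -1.83 for Tal1, -1.23 for Lmo2 and -1.07 for Flt1. The median over the 9 was -1.07, whereas over all genes replicate 2 was higher by 0.13 and 42.1% of genes were lower in it. In the other 3 groups the members' median lay between 0.40 and 0.59 and that of all genes between 0.20 and 0.23. Signs of the E7.5 fraction difference were opposite in the 2 replicates for 5 of 9 members, which is near the 48.8% of all genes. Signs of the stage change in GFP+ cells were opposite for 6 of 9, against 42.1%. For the E6.5 fraction difference this held for 2 of 9 (41.1% of all genes), and for the stage change in GFP- cells for 1 of 9 (45.9%).

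Without GFP+ E7.5 replicate 2, the fraction difference at E7.5 was 1.19 for Kdr and 0.79 for Etv2, and without replicate 1 it was -0.74 and -1.79. The stage change in GFP+ cells was 1.59 and 0.98 without replicate 2 and -0.34 and -1.60 without replicate 1. Extraembryonic mesoderm and epiblast genes moved with the members here. Their summed log2 level over 7 kept genes was 58.3 in replicate 1 and 52.0 in replicate 2 of GFP+ E7.5, and 5 of the 7 were lower in replicate 2, with a median of -0.67. Of the 10 epiblast genes, 9 were lower in replicate 2, with a median of -0.36 and summed levels of 72.9 and 66.9. Hand1, a regulator of extraembryonic and cardiac mesoderm, was at 10.3 and 7.92, and Bmp4, a growth factor of these tissues, at 8.43 and 7.22. Over all genes 42.1% were lower in replicate 2. Of the 9 cardiac genes kept, 3 were lower in it, and their summed level was 51.0 and 55.4. The part of these differences in the members' values was not tested.

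**Figure D4:**
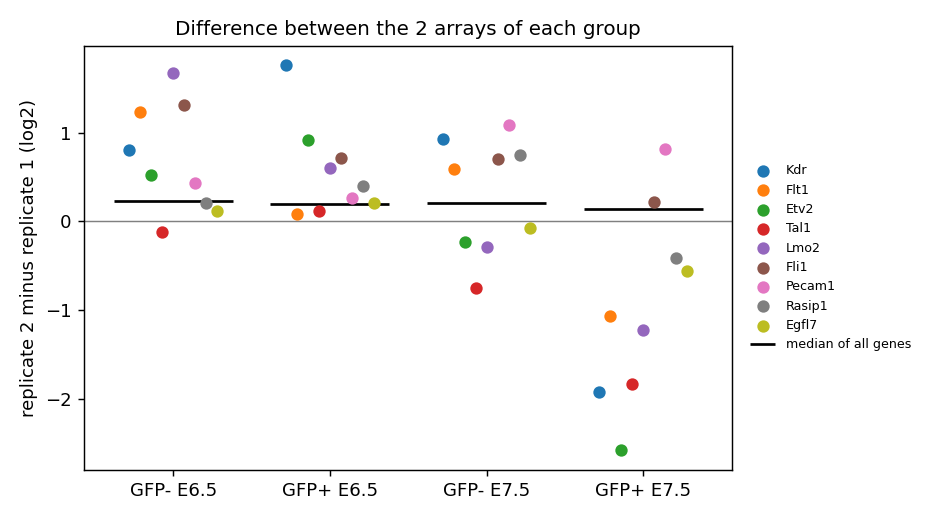
Replicate 2 minus replicate 1 (y axis, log2) of each kept member (points) in the 4 groups (x axis); black bars are the median over all 11706 genes. In GFP+ E7.5 cells 7 of 9 members lie below 0, down to -2.58 for Etv2, while the median of all genes is 0.13.

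Other genes of VEGF signalling were measured beside the members. Of the 7 ligand, co-receptor and Flt4 genes, 5 were kept and 0 passed in any contrast. Nrp2, a co-receptor for VEGF and semaphorins, was at 4.75 and 4.70 in GFP- and 6.82 and 6.02 in GFP+ cells at E6.5, and at 8.81 and 6.97 in GFP- and 8.26 and 7.64 in GFP+ cells at E7.5. All 4 E7.5 arrays were above all 4 E6.5 arrays, with a stage change averaged over the fractions of 2.35 (SE 0.43; 2.75 and 1.94 within the replicates; limma adjusted p = 0.113). As the mean of its probe sets it was 1.57. With the replicate block the change of 2.35 passed (limma adjusted p = 0.0443). Under the other alternatives that used all 8 arrays it did not pass (limma adjusted p = 0.0552 to 0.153). Nrp1, its paralogue, had a stage change of 1.96 (SE 0.52; 2.63 and 1.30), and its GFP+ E7.5 arrays were at 7.44 and 5.18, split the same way as those of Kdr. Vegfa, the ligand of both receptors, had an E6.5 fraction change of -1.07 (SE 0.43; -1.58 and -0.55), and Flt4, the lymphatic VEGF receptor, of -0.01.

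In the list of 25 other endothelial genes, 15 were kept and 0 passed in any contrast, with a median stage change of 0.00 in GFP- and 0.24 in GFP+ cells. Their largest stage change in GFP- cells was that of Rhoj, a small GTPase gene of endothelial cells, at 1.64 (SE 0.61; 1.13 and 2.14). Rhoj was kept for testing through E7.5 arrays alone, so the filter bears on its change. Its GFP- E6.5 arrays lay under 4.38, at 3.24 and 2.90, so the size is uncertain. Of 16 haematopoietic progenitor genes 10 were kept and 0 passed; Kit, Myb and Lyl1 were among the 6 not kept. Between the stages in GFP- cells, Meis1 had a change of 1.68 (SE 0.56), Gata1 of 1.66 (SE 0.70) and Gata2 of 1.61 (SE 0.65). Gata1, the erythroid GATA factor gene, was at 7.16 in GFP- E7.5 replicate 1 and at 3.71 to 4.80 on the other 7 arrays. Hbb-bh1, an embryonic globin gene, was at 5.45 and 5.99 in GFP- E7.5 cells and between 3.11 and 3.47 elsewhere. It was kept for testing through these GFP- E7.5 arrays alone, so the filter bears on its change. Its stage change in GFP- cells was 2.55 (SE 0.31; 2.26 and 2.83; limma adjusted p = 0.0606). With low values raised to 4.38 it was 1.34 (limma adjusted p = 0.165). Limma's adjusted p was under 0.05 with the replicate block (0.0279), quantile normalization (0.0323), centred arrays (0.0275), the mean of probe sets (0.0435) and the trend prior (0.0411). With no filter it was 0.0520, and with every kept probe set tested 0.0655. It was 0.129 to 0.346 with any 1 array left out and 0.237 with only the compared arrays. Hbb-bh1 was 1 of 8 kept erythroid genes, of which 0 passed in the fit without these changes.

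Of 12 regulators placed upstream of Etv2, all 12 were kept. Mesp1 is among them, and the sort by its reporter bears on its place in the counts that follow. At E6.5 only Mesp1, whose promoter drives the sorted reporter, passed (3.94, SE 0.33, limma adjusted p = 0.0209; 0.0587 to 0.348 with any 1 of the 8 arrays left out), and 8 of the 12 had GFP+ arrays above GFP- arrays without overlap (14.8% of all genes). Foxc2, a forkhead gene of vessel-forming mesoderm, rose between the stages in GFP- cells by 5.10 (SE 0.46, limma adjusted p = 0.0160) and in GFP+ cells by 5.45 (SE 0.46, limma adjusted p = 0.0409). With the replicate block these adjusted p-values of limma were 0.0286 and 0.0571, so the change in GFP+ cells no longer passed. With only the compared arrays they were 0.0598 and 0.103, and with no filter the change in GFP+ cells was at 0.0517. Without any 1 of the GFP- arrays limma's adjusted p in GFP- cells was 0.0741 to 0.160, and in GFP+ cells it was 0.0987 to 0.370 without any 1 of the GFP+ arrays or of the GFP- E7.5 arrays. Foxc2 lay under 4.38 on the 4 E6.5 arrays, so these sizes are uncertain. It was kept for testing through the E7.5 arrays alone, so the filter bears on its changes. Its GFP+ E7.5 arrays, at 8.18 and 9.01, did not share the split of Kdr and Etv2. The other regulators did not pass at either step: Gata4 and Gata6 had E6.5 fraction changes of 2.76 and 3.63 (SE 0.88 and 0.89), and Bmp4 of -2.03 (SE 0.59).

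The genes whose levels ran most like those of Kdr were found by Pearson's r over the 8 arrays after subtraction of each replicate number's mean, as a description. They were Wnt2 (0.98), Fam13a (0.97), Xpnpep1 (0.96), Ppic (0.96) and Inka1 (0.96). Wnt2 ran from 4.21 to 7.52, Ppic from 4.78 to 8.17 and Inka1 from 4.27 to 7.36, whereas Fam13a covered 0.36 over all arrays. For Etv2 they were Ppp4r1 (0.99), Ttll4 (0.96), Rps9 (0.95), Nlk (0.94) and Ncbp2 (0.94), each covering 0.36 to 0.99 on the log2 scale against 2.58 for Etv2. Among the members themselves, Etv2 stood closest to Kdr (0.82, rank 259), followed by Fli1 (0.60) and Lmo2 (0.58), and Rasip1 was farthest (-0.64). These 8 arrays share groups and the amplification protocol.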

How the data were processed

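The authors deposited 1 table of log2 values, summarised to probe sets by RMA according to the submitters' processing notes. The version of RMA, a genome build and whether all arrays were normalized together are not given in the sources used here. RNA of 50 cells was amplified in 25 PCR cycles, per the labels' protocols. The number of arrays limits the precision. Of 45141 probe sets, 104 were controls, 28898 had 1 gene symbol, 551 several and 15588 none. Probe sets with 1 symbol were kept when at least 2 arrays exceeded the median of all values. All 16 member probe sets matched RefSeq by Entrez identifier. Changes were tested with limma 3.58.1 (R 4.3.3; lmFit and eBayes, two-sided, Benjamini-Hochberg over 11706 genes, threshold 0.05). The model held 1 coefficient for each of the 4 groups, no block and 4 residual degrees of freedom, and it was tested on simulated data.

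Arrays with the same replicate number deviated together from their group means: r across genes was 0.40 to 0.53 in each of the 6 group pairs. The replicate number was therefore also fitted as a block, although the labels do not say what a number shares. Named genes are all members, Mesp1 and the 5 genes most like Kdr and Etv2. The 5 pathway lists were VEGF, other endothelial, haematopoietic, erythroid and upstream of Etv2. Their genes past the threshold are named, and up to 4 of the largest changes in each. Genes outside this rule are named too, such as Bmp4 and Flt4 for the E6.5 fraction change. Larger changes of their lists are then not all named. Members and lists were chosen with earlier results of these data known. Other alternatives were the filter, the probe set rule, normalization, low values, the variance prior, the arrays fitted and each array left out.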

Additional observations from a re-analysis of the deposited data

How the results depend on the processing

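None of the 63 changes of kept members passed the limma threshold under any alternative run; of 1030 values, 982 kept their sign and 48 did not. Outside the left-out arrays, 7 turned. With low values raised to the overall median, Fli1 at E6.5 was -0.14, Tal1 at E7.5 0.068, in the averaged fraction effect 0.034 and in the interaction 0.068. With the mean of all probe sets, Flt1 at E7.5 was -0.022 and Egfl7 in the interaction 0.038, and with quantile normalization Tal1 in the interaction was 0.14. With each array left out in turn, the changes that turned sign were these. For the fractions at E6.5, Fli1 ran from -0.64 to 0.67, Lmo2 from -0.99 to 0.68 and Pecam1 from -0.35 to 0.083. For the fractions at E7.5, Etv2 ran from -1.79 to 0.79, Flt1 from -0.11 to 0.96, Kdr from -0.74 to 1.19, Pecam1 from -0.72 to 0.37 and Tal1 from -1.32 to 0.51. For the stages in GFP+ cells, Etv2 ran from -1.60 to 0.98, Kdr from -0.34 to 1.59, Pecam1 from -0.34 to 0.48, Rasip1 from -0.23 to 0.18 and Tal1 from -0.12 to 1.71. For the stages in GFP- cells, Flt1 ran from -1.07 to 0.16 and Pecam1 from -0.44 to 0.65. For the averaged fraction effect, Etv2 ran from -0.34 to 0.95, Pecam1 from -0.43 to 0.12 and Tal1 from -0.86 to 0.060. For the averaged stage effect, Etv2 ran from -0.15 to 1.14 and Pecam1 from -0.18 to 0.36. For the interaction, Egfl7 ran from -0.46 to 0.10, Pecam1 from -0.58 to 0.51 and Tal1 from -0.93 to 0.90. In each group 2 arrays, and levels near the median of all values, limit these changes.

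Counts of all genes past the threshold moved more. Pairing by replicate number, fitted as a replicate block, gave 30 genes for the fractions at E6.5 (9 without the block), 39 for the stages in GFP- cells (11), 8 for the averaged fraction effect (1) and 94 for the averaged stage effect (30), and changed no member's call. In the same order, quantile normalization gave 16, 26, 10 and 50, centred arrays 19, 30, 18 and 56, and a variance prior with a trend 25, 34, 23 and 74. The trend gave 2 for the interaction (0), and centring gave 8 for the stages in GFP+ cells (3), where no filter gave 0. Testing every kept probe set gave 4 at E6.5, and the mean of probe sets 17 for the stages in GFP- cells and 0 for the averaged fraction effect, which had 4 with no filter and 6 with raised low values. Fitting only the compared arrays gave 0 at E6.5, 0 for the stages in GFP+ cells and 4 in GFP- cells. With each array left out in turn, counts were 0 to 1 at E6.5, 0 to 3 and 3 to 10 for the stages in GFP+ and GFP- cells, 0 to 1 for the averaged fraction effect and 6 to 15 for the averaged stage effect. The causes were not tested.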

Other observations

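The lists of regulators placed upstream of Etv2 and of cardiac genes were split in the GFP+ E7.5 arrays. Lower in replicate 2 were 7 of 12 regulators and 3 of 9 cardiac genes, against 42.1% of all genes, and the rest were higher. The lower regulators were Bmp4, Bmp2, Smad1, Mesp1, Wnt3, Gata4 and Gata6, and the lower cardiac genes Isl1, Hand2 and Myl7. Apart from Mesp1, the genes named next were among the higher ones. Tnnc1, which encodes cardiac troponin C, was at 6.52 in replicate 1 and 8.18 in replicate 2, and Actc1, cardiac actin, at 6.60 and 7.51. Foxc1, the forkhead paralogue of Foxc2, was at 7.34 and 9.01, Tbx6, a paraxial mesoderm regulator, at 7.68 and 8.88, and Mesp2 at 4.81 and 6.53. Mesp1, slightly lower in replicate 2, was at 8.75 and 8.65. These genes were chosen from the lists after their values were seen, and the difference between single arrays has no test.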
